A study of Mus musculus with 14 samples.

Results

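The genes described here encode the transporters that load glutamate into synaptic vesicles and those that clear it from the extracellular space. They were chosen by name: the vesicular transporters Slc17a7, Slc17a6 and Slc17a8, and the plasma membrane transporters Slc1a1, Slc1a2 and Slc1a3. All 6 were found among the 27781 named gene rows, and all 6 passed a filter on low values (at least 1 in no fewer than 7 libraries), which left 24554 genes to test. The samples were neuronal nuclei isolated from dissected mouse medial entorhinal cortex, a parahippocampal area that feeds the hippocampus and holds grid cells. There were 7 aged and 7 young SmartSeq libraries, which the study set beside electrophysiological recordings. The labels give age only as aged or young. Strain, sex, age in months, any pooling of animals and how nuclei were sorted could not be read from the labels. Libraries are not stated to be from separate animals, so each p-value reflects the spread among these libraries alone, and that spread may be technical.

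Glutamate is packed into vesicles by proton-driven transporters of the SLC17 family, released, and then taken up by sodium-driven transporters of the SLC1 family. Slc17a7 (VGLUT1) is the main vesicular transporter of cortical and hippocampal pyramidal cells, and Slc17a6 (VGLUT2) that of thalamic and many other subcortical neurons. Slc17a8 (VGLUT3) is found in sparse neurons that also use another transmitter, such as cholecystokinin interneurons and serotonergic cells. Slc1a1 (EAAC1) is the neuronal uptake carrier, while Slc1a2 (GLT-1) and Slc1a3 (GLAST) are known as the carriers of astrocytes, with some Slc1a2 RNA also made by cortical neurons. In nuclei of mixed tissue, fewer nuclei of a type and less RNA per nucleus cannot be told apart.

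The promoters of Slc17a7 and Slc17a6 are shown because the balance of these 2 paralogues sets aged library 3 apart. Each line gives 250 bases upstream of a RefSeq start site, the first listed for each gene (GRCm38.p6, plus strand), with capitals on matches to the E-box CANNTG and the GC box GGGCGG, searched on both strands.
Slc17a7, chr7:45163671-45163920: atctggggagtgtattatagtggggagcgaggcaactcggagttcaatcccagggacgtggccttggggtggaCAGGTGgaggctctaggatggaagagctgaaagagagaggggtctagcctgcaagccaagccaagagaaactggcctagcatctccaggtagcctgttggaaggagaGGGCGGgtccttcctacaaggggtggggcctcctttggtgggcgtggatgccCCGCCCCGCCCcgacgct
Slc17a6, chr7:51621580-51621829: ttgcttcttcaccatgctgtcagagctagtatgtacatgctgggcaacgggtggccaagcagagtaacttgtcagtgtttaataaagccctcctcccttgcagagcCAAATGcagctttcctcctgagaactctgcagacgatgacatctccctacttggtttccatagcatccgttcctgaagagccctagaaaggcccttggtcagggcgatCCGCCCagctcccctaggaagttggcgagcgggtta
The Slc17a7 window held 3 GC boxes, of which 2 overlap by their last and first base, and 1 E-box, with 61.2% G and C. The Slc17a6 window held 1 GC box and 1 E-box, with 53.2% G and C. RefSeq gives Slc17a6 a second start site downstream, whose window (not printed) held 0 GC boxes and 2 E-boxes, with 41.2% G and C. Of 32536 RefSeq windows of the same length, 66.2% held an E-box and 33.0% a GC box, so neither match sets these promoters apart. All 6 genes matched the promoter table. In GENCODE M21 on mm10, Slc17a7 spans chromosome 7 from 45163949 to 45176142 and Slc17a6 spans the same chromosome from 51622006 to 51671119, both on the plus strand. Slc17a8 lies on chromosome 10 (89574020 to 89621253, minus strand), Slc1a1 on chromosome 19 (28835049 to 28913960, plus), Slc1a2 on chromosome 2 (102658659 to 102790784, plus) and Slc1a3 on chromosome 15 (8634124 to 8710764, minus).

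Values are the authors' normalized values per gene, so read depth is unknown; 21152 to 25615 genes were above 0 in a library. Xist, the RNA that coats the inactive X chromosome of female cells, split the libraries into 2 sets that were unbalanced over age. It lay between 7378 and 25459 in 5 aged and 2 young libraries (Xist-positive) and between 0 and 5.13 in 2 aged and 5 young libraries (Xist-negative). Age differences are therefore given for age alone, and again with the library set in the model.

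Aged library 3 went against its tissue label. In it, 9 of 10 excitatory neuron markers were at their lowest, and the list summed to 6930 against 22887 to 50367 in the 13 other libraries. Camk2a, a kinase of forebrain excitatory neurons, measured 1873 in this library against 9844 to 21336 elsewhere. By contrast Th, Slc6a3, Slc18a2, Ddc, Ret, Tph2 and Gata3, genes of dopamine and serotonin neurons chosen after their values were seen, were all at their highest there and summed to 98502, against 1523 to 4222 in the other libraries. The summed pan-neuronal markers of this library, 141280, lay inside the range of the others (103440 to 196001). Values without aged library 3 are given beside the main results. Young library 19 also stood apart, holding the highest value of 29.4% of genes tested against 14.1% for aged library 3 and 2.02 to 12.2% for the rest.

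**Figure D1:**
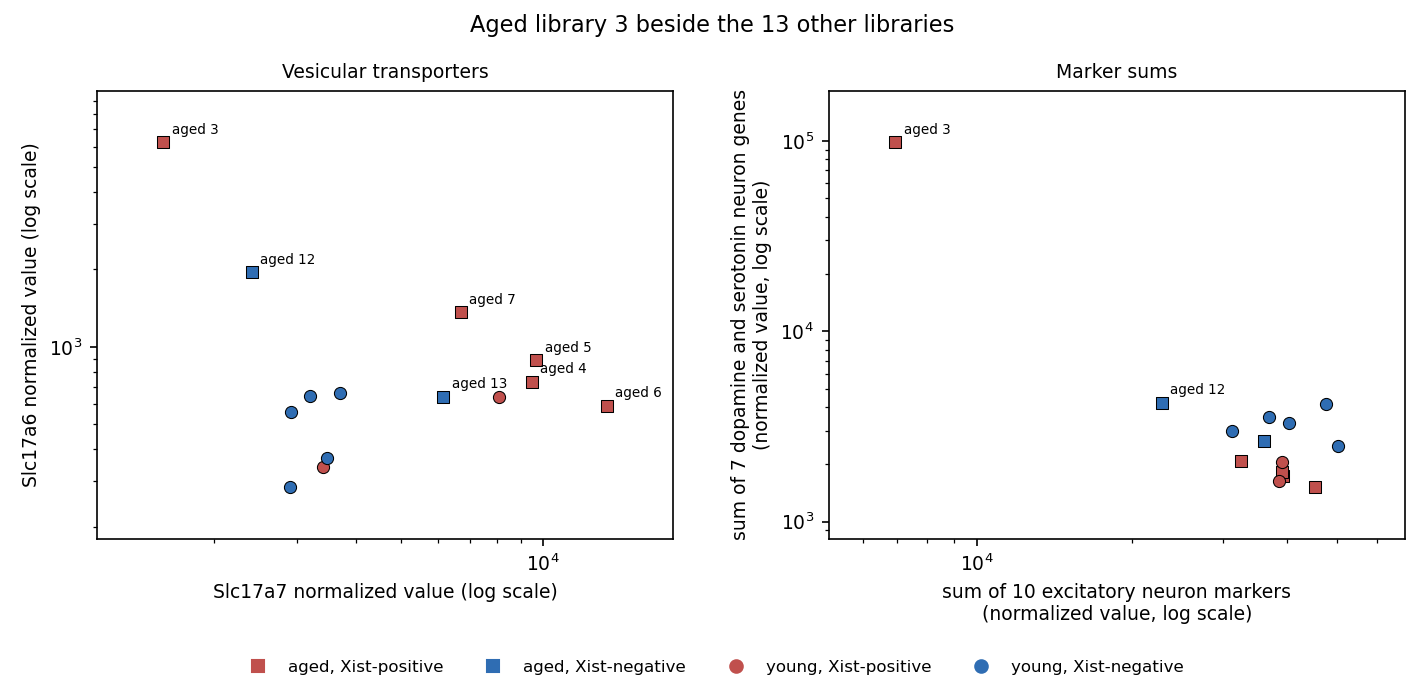
The vesicular transporter Slc17a6 against Slc17a7 (left) and the sum of 7 dopamine and serotonin neuron genes against the sum of 10 excitatory neuron markers (right), in normalized values on log axes, 1 point per library, squares for aged and circles for young; aged libraries are numbered on the left. Aged library 3 sits alone in both panels, with Slc17a6 at 6241 and Slc17a7 at 1562.

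Slc17a7 was the most abundant of the 6 genes per kilobase of exon in 10 of 14 libraries, and Slc17a8 the least in 12. On this per-length scale the median level of Slc17a7 was 1242 per kb in aged and 632 per kb in young libraries. Slc1a2 followed at 484 and 465 per kb in aged and young libraries, and Slc1a1 at 457 and 557 per kb. These neighbours exchanged places, with Slc1a2 above Slc1a1 in 6 libraries and Slc1a1 above Slc1a2 in 8. Slc1a3 came next, at 398 per kb in aged and 277 per kb in young libraries, and lay below Slc1a2 in 13 of 14 libraries. Slc17a6 had medians of 165 per kb in aged and 104 per kb in young libraries, and Slc17a8 of 35.6 per kb in aged and 54.7 per kb in young libraries. Slc17a6 led only in aged library 3, where it reached 1156 per kb against 289.6 per kb for Slc17a7. In aged library 12 the order began with Slc1a3, and in young libraries 17 and 18 with Slc1a1. The order depends on the lengths used, the union of all annotated exons, which was 5.39 kb for Slc17a7 and 13.1 kb for Slc1a2. In normalized values without this division, Slc17a7 lay above Slc1a2 only in aged libraries 6 and 7.

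No transporter passed the threshold in the comparison of age: 0 of 6 had an adjusted p under 0.05 in limma with age alone, where 0.00407% of the 24554 genes tested did. With the library set in the model 0 of 6 passed as well, against 0.00815% of all genes. At an unadjusted p under 0.05 there was 1 transporter, Slc17a6, in either fit, against 24.1% of all genes with age alone and 13.1% with the set. Without aged library 3 the count at that level was 2 with age alone (Slc17a7 and Slc17a6, all genes 16.6%) and 1 with the set (Slc17a6, all genes 13.1%). Below, a difference is the aged mean minus the young mean of log2(value + 1). The median over all genes was -0.25 with age alone and -0.16 with the set, and for the 6 transporters it was 0.11 and -0.03.

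**Figure D2:**
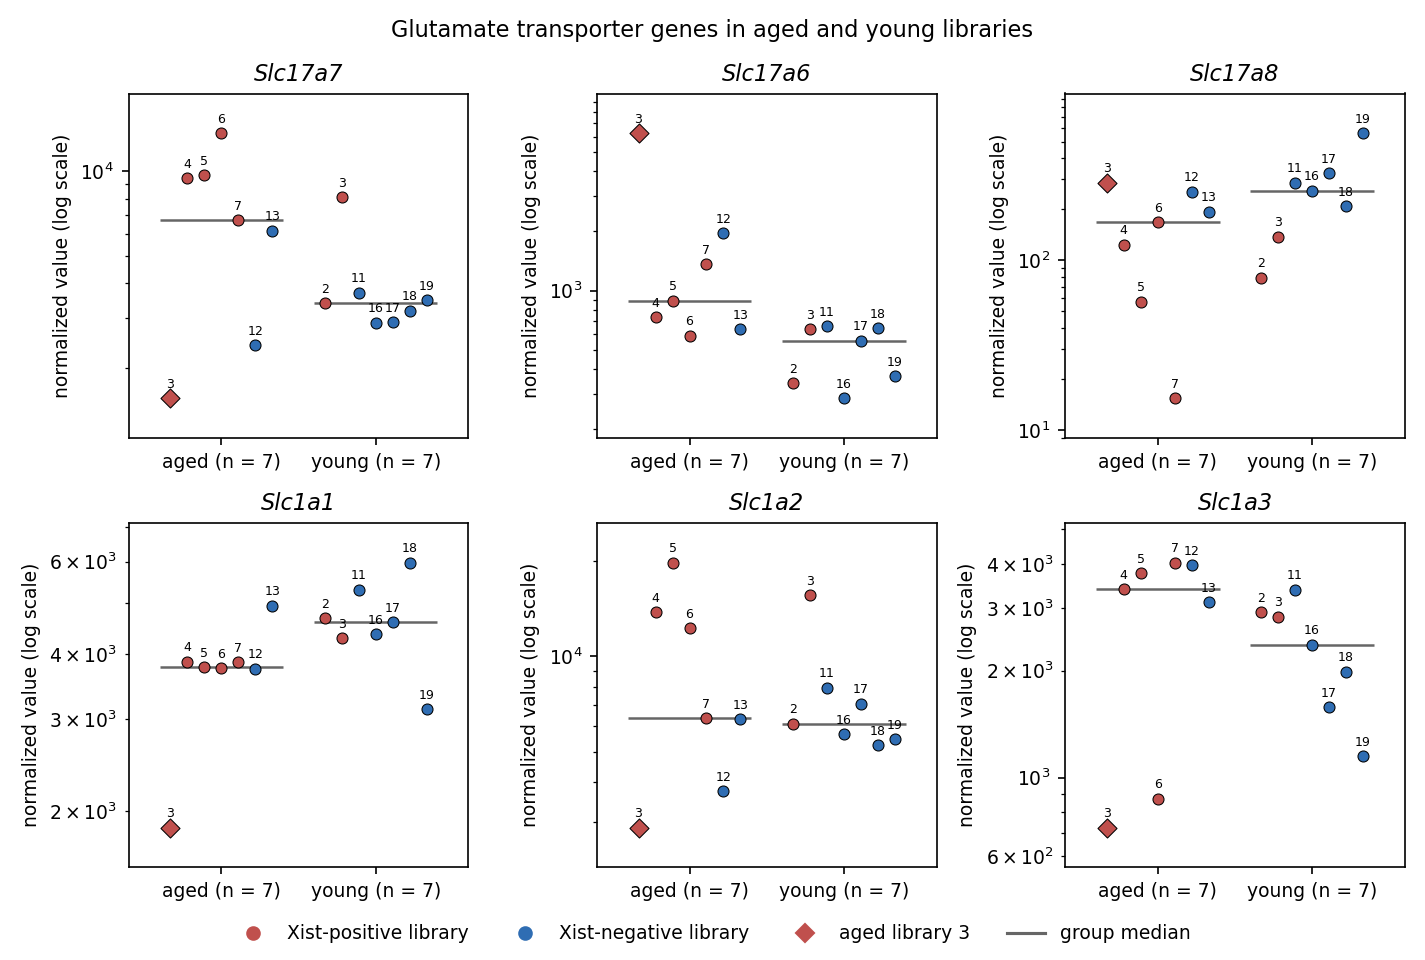
Normalized values (log axes) of the 6 genes in 7 aged and 7 young libraries, 1 point per library with its number, coloured by library set, with the group median as a line. Aged and young values overlap for every gene, and aged library 3 (diamond) is the lowest aged library for Slc17a7, Slc1a1, Slc1a2 and Slc1a3 and the highest for Slc17a6 and Slc17a8.

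Slc17a6, the subcortical vesicular transporter, had the largest age difference of the 6 in both fits over 14 libraries. Its aged libraries ran from 591 through a median of 889 to 6241, and its young libraries from 286 through 559 to 660. Thus 5 of 7 aged libraries lay above the highest young one and none below the lowest. The difference was 1.36 (SE 0.44, 95% interval 0.42 to 2.31, limma adjusted p = 0.182), and 1.33 with the set (SE 0.49, adjusted p = 0.290). The estimate was smaller and still positive without aged library 3: the aged libraries averaged 1028 ± 534 (SD, n = 6) against 500 ± 162 in young libraries (SD, n = 7), and the difference was 0.97 (interval 0.31 to 1.63, adjusted p = 0.300), or 1.05 with the set (adjusted p = 0.231). Within the Xist-positive set it was 1.44, or 0.87 without aged library 3, and within the Xist-negative set 1.22. Of all genes tested, 3.90% had a smaller p than Slc17a6 with age alone, and 2.04% without aged library 3.

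Slc17a7, the pyramidal cell transporter, varied more between aged libraries than between young ones. It measured 1562, 6696 and 13675 as lowest, median and highest of the aged libraries, and 2895, 3408 and 8083 in the young ones. The aged group held both ends of the range, with 3 libraries above the highest young value and 2 below the lowest. Its difference was 0.62 (SE 0.42, adjusted p = 0.338) and 0.30 with the set (SE 0.43, adjusted p = 0.781). Without aged library 3 the aged libraries averaged 8017 ± 3837 (SD, n = 6) against 3953 ± 1845 in young libraries (SD, n = 7). That gave 0.93 (SE 0.35, limma adjusted p = 0.300) with age alone and 0.55 (adjusted p = 0.392) with the set. The Slc17a7 estimate was thus larger in both fits without this library, and no call changed.

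Slc17a8, the sparse co-transmitter transporter, was low and wide in range. Aged libraries measured 15.4, 168 and 288 (lowest, median, highest) and young libraries 79.2, 258 and 562. The lowest 2 of all libraries, 7 and 5, were aged and the highest, library 19, was young. The difference was -0.97 (SE 0.61, adjusted p = 0.300) with age alone and -0.36 (SE 0.56, adjusted p = 0.801) with the set, so the estimate was nearer to 0 with the set. Without aged library 3 it was -1.19 and -0.56 (adjusted p = 0.313 and 0.632).

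**Figure D3:**
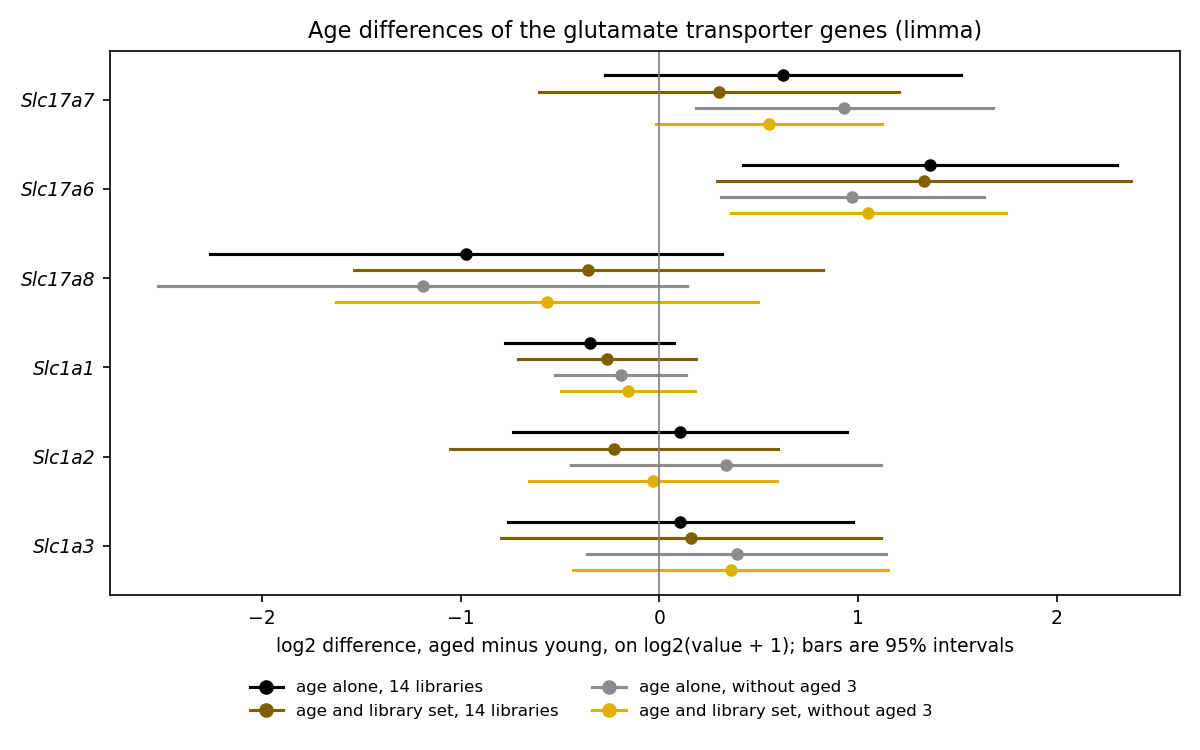
Age differences of the 6 genes (points, log2 units, aged minus young) with 95% intervals from limma, for age alone and for age with the library set, over 14 libraries and without aged library 3. The intervals of Slc17a6 lie above 0 in all 4 fits before adjustment over genes, and that of Slc17a7 does so in 1.

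Slc1a1, the neuronal uptake carrier, differed least between libraries. Aged libraries measured 1863, 3772 and 4942 (lowest, median, highest) and young libraries 3132, 4599 and 5974. The aged median was 0.820 times the young one, but 1 aged library (13) lay above 5 young ones and young library 19 lay below 6 aged ones. The difference was -0.35 (SE 0.20, adjusted p = 0.262) with age alone and -0.26 (SE 0.21, adjusted p = 0.592) with the set. It was -0.19 and -0.16 without aged library 3 (adjusted p = 0.452 and 0.684), which holds the lowest value. Among Xist-positive libraries the groups did not overlap, at 1863 to 3866 in 5 aged and 4281 to 4676 in 2 young libraries; 9.82% of all genes were lower in aged without overlap in this small set. There the difference was -0.44 (adjusted p = 0.671), or -0.23 without aged library 3 (adjusted p = 0.461), against -0.09 in the Xist-negative libraries. The gene 4430402I18Rik overlaps Slc1a1 on the opposite strand (mean value 987), and Gm13872 likewise overlaps Slc1a2 (mean 10.1). Whether counting used strand is not given, so reads of such pairs may be mixed.

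Slc1a2 and Slc1a3, known as carriers of astrocytes, showed no age difference of a fixed direction. In these libraries Slc1a2 went more with excitatory neuron markers than with astrocyte markers (values below). Slc1a2 measured 2878, 6356 and 19738 (lowest, median, highest) in aged libraries and 5239, 6112 and 15585 in young ones. Its highest 4 values, in aged libraries 5, 4 and 6 and young library 3, were all Xist-positive. The difference was 0.10 (interval -0.73 to 0.94, adjusted p = 0.881) with age alone and -0.23 (interval -1.05 to 0.60, adjusted p = 0.821) with the set. It was 0.34 and -0.03 without aged library 3.

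Slc1a3 measured 724, 3397 and 4032 (lowest, median, highest) in aged libraries and 1150, 2366 and 3382 in young ones. Aged libraries 7, 12, 5 and 4 lay above every young library, whereas aged libraries 3 and 6 lay below every young one. The difference was 0.11 (interval -0.76 to 0.97, adjusted p = 0.883) with age alone and 0.16 (interval -0.80 to 1.12, adjusted p = 0.899) with the set. It was 0.39 and 0.36 without aged library 3 (adjusted p = 0.508 and 0.689). The sets had opposite signs, at -0.52 in Xist-positive and 0.84 in Xist-negative libraries, but the age-by-set term of -1.36 (SE 0.87) did not pass (adjusted p = 0.9997). None of the 6 terms passed, nor did any of 24554 genes in limma (0%), of which 889 had an unadjusted p under 0.05.

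Ratios within a library do not depend on its scaling. The log2 ratio of Slc17a6 to Slc17a7 averaged -2.22 ± 2.29 in aged libraries and -2.96 ± 0.55 in the young ones (SD, n = 7 each; two-sided exact permutation p = 0.481, adjusted p = 0.721 over 3 ratios). It was 1.998 in aged library 3 and -0.30 in aged library 12, while the 5 other aged libraries lay between -4.53 and -2.30 and the young ones between -3.66 and -2.31. The difference of means, aged minus young, was 0.74, and 0.04 without aged library 3. Within the sets it was 1.03 (exact permutation p = 0.345, adjusted p = 0.707), and 0.50 without that library (adjusted p = 0.767). The ratio of Slc1a2 to Slc1a3 averaged 1.69 ± 1.28 in aged libraries and 1.69 ± 0.58 in the young ones (exact permutation p = 0.997, adjusted p = 0.997). The difference was -0.05 without aged library 3, -0.39 within the sets (adjusted p = 0.707) and -0.39 with both. The ratio of Slc1a2 to Slc1a1 averaged 1.09 ± 0.88 in aged libraries and 0.63 ± 0.63 in the young ones (exact permutation p = 0.296, adjusted p = 0.721). The difference of 0.45 was 0.53 without aged library 3, but 0.03 within the sets (adjusted p = 0.923) and 0.12 with both.

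Aged library 12 shared part of the pattern of aged library 3. It had the second lowest Slc17a7 (2409) and the second highest Slc17a6 (1956) of all libraries, the lowest Neurod6 (40.1 against 107 to 1276 in the others) and the next lowest sum of excitatory markers (22887). Its dopamine and serotonin genes, however, summed to 4222, close to the 4173 of the highest young library. The 9 inhibitory neuron markers summed to 81428 in aged library 12, the highest of all libraries, and to 56963 in aged library 3. Of these, Dlx1 (425) and Lhx6 (963) were at their highest in aged library 12 and at their lowest in aged library 3. In aged library 3, 3 of the 9 were at their lowest and 3 at their highest. Tcf7l2, a thalamic and midbrain marker, measured 1084 in aged library 12 and 2494 in aged library 3, against 69.8 to 1376 in the other 12 libraries. Of the 8 genes of that marker list, however, 2 were at their highest in aged library 3 and 1, Lef1, at its lowest (120.5 against 153 to 1989 in the others), and the list's sum there, 3043, lay inside the range of the others (1413 to 3607). The part of any other region in these Slc17a6 values was not tested.

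Some of these genes differed between the library sets. With age in the model, Slc17a8 was lower in the Xist-positive libraries (124 ± 88.8 against 298 ± 125 in the Xist-negative ones, SD, n = 7 each; set difference -1.44, SE 0.56, adjusted p = 0.0402). It was 1 of 6 transporters that passed, where 52% of all genes did. Without aged library 3, Slc17a7 (0.999, adjusted p = 0.00499), Slc1a2 (0.97, adjusted p = 0.0106) and Slc17a8 (-1.64, adjusted p = 0.0109) passed, 3 of 6 against 54.5% of all genes. The sodium phosphate and organic anion transporter genes Slc17a1 to Slc17a4, chosen after their values were seen, summed to 11.3 to 138 in Xist-positive and 432 to 1649 in Xist-negative libraries. Lower levels in the Xist-positive set were common, as 36.5% of all genes passed in that direction in limma with age in the model. Slc17a9, a vesicular nucleotide transporter gene of low level, overlapped between the sets. The part of this shift between the sets in the Slc17a8 values was not tested.

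The genes most like each transporter were ranked by Pearson's r of log2(value + 1) after subtracting each set's mean, over 13862 genes with a mean value of 100 or more; this is a description, and the points share library, depth and makeup. Over 14 libraries Slc17a7 was most like Mras (0.93), Kcnip3 (0.93) and Zfp365 (0.92), and without aged library 3 like Gsg1l (0.97), Mras (0.92) and Map1lc3a (0.92). Slc17a6 was nearest to Tmie (0.94), Srprb (0.93) and Zfp467 (0.93), and without that library to Lrtm2 (0.89), Sil1 (0.88) and Tmie (0.87). Slc17a8 was nearest to Tnfrsf23 (0.94), Pole (0.93) and Slc18a1 (0.92), and without it to Oc90 (0.94), Vmn2r30 (0.94) and Mfsd7b (0.93). Slc1a1 had Grm5, a metabotropic glutamate receptor, as its nearest gene both ways (0.97 and 0.92), followed by Crym (0.95) and Kcng1 (0.94), or by Hspa12a (0.89) and Aacs (0.89) without aged library 3.

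The 2 carriers known from astrocytes had different neighbours. Slc1a2 was nearest to Arap2 (0.97), Fermt1 (0.96) and Rxfp1 (0.95), and without aged library 3 to Fut9 (0.94), Fermt1 (0.94) and Arap2 (0.94). Slc1a3 was nearest to Cfap45 (0.88), Prex2 (0.86) and Ezr (0.85), and without aged library 3 to Cbs (0.97), Fgfr3 (0.91) and Cyp2j9 (0.90); Fgfr3 is one of the 12 astrocyte markers. Among the 13 libraries, r with those markers had a median of 0.54 for Slc1a3 and 0.12 for Slc1a2, and 7 and 1 of the 12 stood among the 1000 nearest genes. With the 10 excitatory neuron markers the medians were -0.46 for Slc1a3 and 0.47 for Slc1a2, with 0 and 5 among the 1000 nearest. The cortical transcription factor genes Neurod6 (0.70), Emx1 (0.64) and Tbr1 (0.60) went with Slc1a2, but Neurod1 (-0.53), Slc30a3 (-0.50) and Camk2a (-0.36) did not. Over all 14 libraries the astrocyte medians were 0.15 for Slc1a3 and -0.04 for Slc1a2, and the excitatory ones 0.26 and 0.76. Likeness to astrocyte markers was not particular to Slc1a3. Without aged library 3, Slc17a6 had an astrocyte median of 0.48, with 7 of 12 among the 1000 nearest. Slc17a7 then had 0.38 with 4 of 12, and 0.32 with 1 of 10 for the excitatory markers. Over 14 libraries its medians were 0.03 and 0.73. This measure therefore does not assign a gene to a cell type. How far these labelled neuronal nuclei hold astrocyte RNA was not tested.

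**Figure D4:**
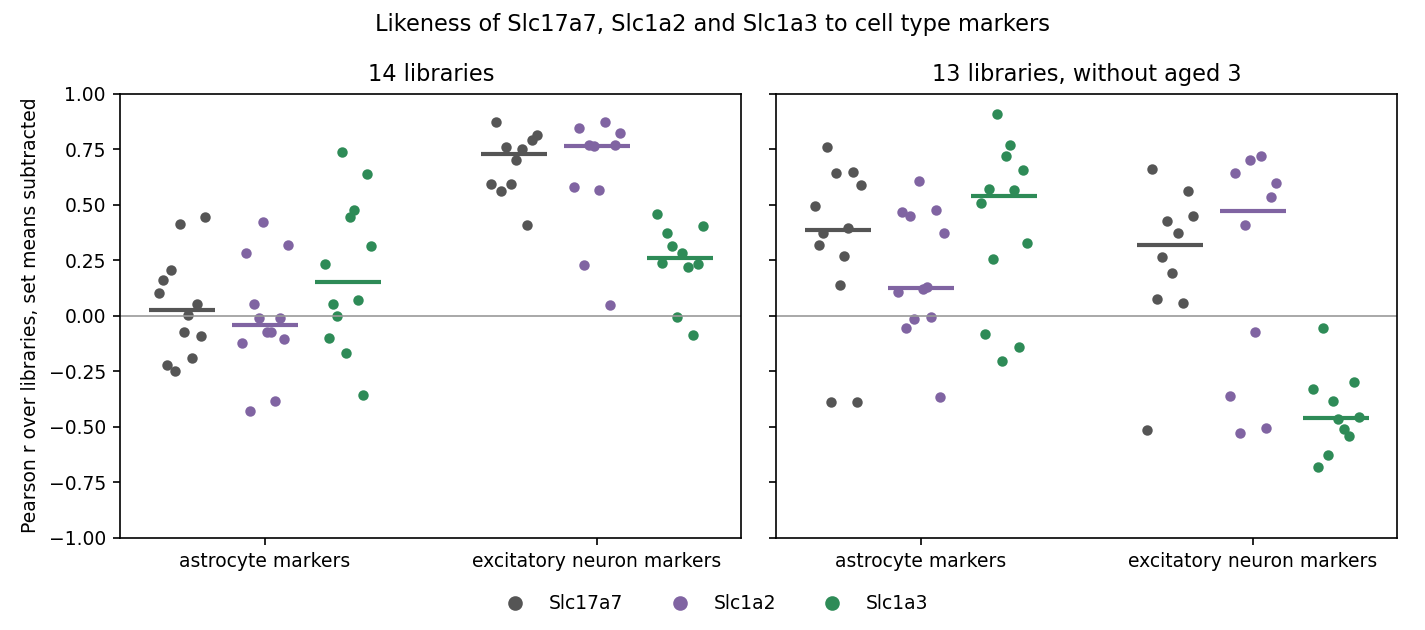
Pearson's r (vertical axis, set means subtracted) of Slc17a7, Slc1a2 and Slc1a3 with each of 12 astrocyte and 10 excitatory neuron markers, 1 point per marker and a line at the median, over 14 libraries (left) and 13 without aged library 3 (right). In the right panel Slc1a3 has a median of 0.54 with the astrocyte markers and -0.46 with the excitatory ones. Slc1a2 has 0.12 and 0.47 there, and Slc17a7 has 0.38 and 0.32.

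Slc1a2 and Slc17a7 were the closest pair among the 6, with r of 0.84 over 14 libraries and 0.64 without aged library 3 after set means were removed. Within the Xist-positive libraries r was 0.89 (exact permutation p = 0.00893, adjusted p = 0.149 over 30 relations; Spearman's rho 0.75, exact p = 0.0663, adjusted p = 0.881) and 0.45 without the 2 libraries farthest from the median of Slc17a7, aged 3 and young 2. Within the Xist-negative libraries it was 0.48 (exact permutation p = 0.270, adjusted p = 0.529; rho 0.54, exact p = 0.236, adjusted p = 0.952) and 0.28 without aged 13 and aged 12. The relation therefore rests partly on those libraries, and none of the 30 relations between members within sets passed adjustment.

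Genes of glutamate and glutamine metabolism and transport had mostly positive age differences, but none passed the threshold. Of 18 genes, 14 were positive with age alone (median 0.41) and 11 with the set (median 0.26), against 37.2% and 37.5% of all genes. In either fit 0 passed in either direction, where 0.00407% and 0.00815% of all genes did. Glud1, the mitochondrial glutamate dehydrogenase, came nearest. Its aged libraries measured 1734, 1946 and 4052 (lowest, median, highest) and its young ones 673, 895 and 1685, with no overlap, as for 0.138% of all genes. The difference was 1.15 (SE 0.23, adjusted p = 0.0949), 0.95 with the set (adjusted p = 0.151) and 1.01 without aged library 3 (adjusted p = 0.173). Slc25a18, a mitochondrial glutamate carrier, averaged 711 ± 241 in aged libraries and 364 ± 103 in the young ones (SD, n = 7 each; difference 0.94, adjusted p = 0.182; 0.96 with the set, adjusted p = 0.198; 0.90 and 0.92 without aged library 3).

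1 further gene of that list was chosen after its values were seen. Glul, the glutamine synthetase of astrocytes, averaged 1201 ± 428 in aged libraries and 706 ± 187 in the young ones (SD, n = 7 each), with differences of 0.73 with age alone and 0.83 with the set (adjusted p = 0.182 and 0.245). They were 0.70 and 0.80 without aged library 3, and neither fit passed.

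**Figure D5:**
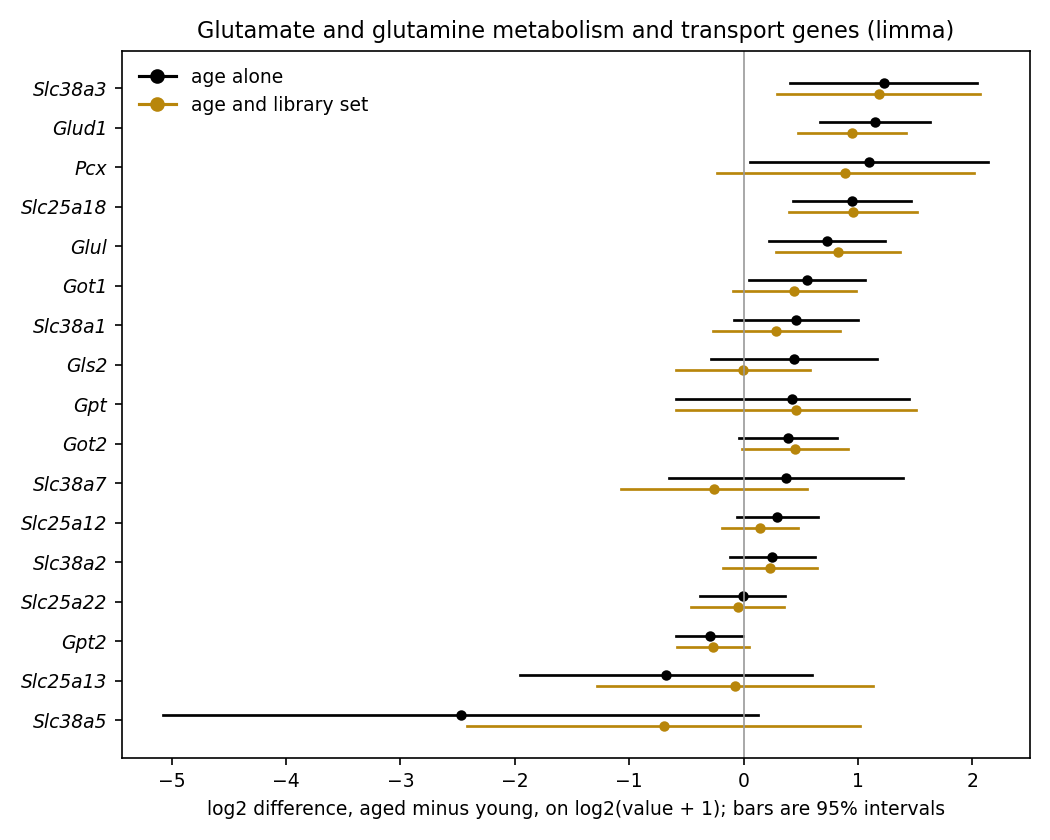
Age differences (points, log2 units, aged minus young) with 95% limma intervals for 17 of the 18 genes of glutamate and glutamine metabolism and transport, with age alone and with the library set. Glud1 (1.15 and 0.95), Slc25a18 (0.94 and 0.96), Glul (0.73 and 0.83) and Slc38a3 (1.23 and 1.18) have intervals above 0 in both fits, and none passed adjustment over all genes.

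Among 10 genes of cystine-glutamate exchange and the pump, channel and scaffold partners of the carriers, 9 were positive with age alone (median 0.70). With the set 9 were positive (median 0.56), against 37.2% and 37.5% of all genes in the 2 fits. In this list 0 passed, where 0.00407% and 0.00815% of all genes did. The gene of this list with a negative difference was Slc7a11, the cystine-glutamate exchanger, named after its values were seen. It averaged 936 ± 238 in aged libraries and 1379 ± 434 in the young ones, with no aged library above the highest young one (-0.54, limma unadjusted p = 0.0397, adjusted p = 0.196; -0.31 with the set, adjusted p = 0.558). It had -0.56 and -0.34 without aged library 3. Atp1b2, a glial sodium pump subunit, averaged 1913 ± 404 in aged libraries and 1168 ± 311 in the young ones (SD, n = 7 each; difference 0.73, adjusted p = 0.182; 0.70 with the set). Kcnj10, the astrocyte potassium channel Kir4.1, averaged 291 ± 166 in aged libraries and 110 ± 43.7 in the young ones (1.28, adjusted p = 0.182; 1.21 with the set). Without aged library 3 the difference was 0.66 for Atp1b2 and 1.12 for Kcnj10.

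The other 10 measured SLC1 and SLC17 genes gave 3 positive differences with age alone (median -1.25) and 4 with the set (median -0.22). Of all genes, 37.2% and 37.5% were positive. In this list 0 passed, where 0.00407% and 0.00815% of all genes did. Slc1a4, a neutral amino acid carrier, averaged 1985 ± 190 in aged libraries and 1421 ± 411 in the young ones (SD, n = 7 each; 0.53, adjusted p = 0.182; 0.50 with the set; 0.51 and 0.49 without aged library 3). Slc17a3 measured 0 to 104 in aged and 9.35 to 220 in young libraries, with -3.17 with age alone and -1.51 with the set (-2.79 and -1.37 without aged library 3).

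Levels of cell type markers are given beside these results. Of 12 astrocyte markers, 10 had positive differences with age alone (median 0.78), against 37.2% of all genes. In limma, where 0.00407% of all genes passed, 0 of these markers did. Their mean log2 level was 9.49 ± 0.51 in aged libraries and 8.86 ± 0.48 in the young ones (SD, n = 7 each; two-sided exact permutation p = 0.0396, adjusted p = 0.396 over 10 marker lists). Within the sets the difference was 0.75 (exact permutation p = 0.0204, adjusted p = 0.102), and 0.71 without aged library 3 (adjusted p = 0.159). Over all assignments of age, leaving out each library in turn gave differences of 0.49 to 0.81 (exact permutation adjusted p from 0.0408 to 0.612). The 0.0408 came without aged library 6, which had the lowest aged level, so its removal raises the aged mean by construction. The summed markers ran from 8594 to 21131 in aged and from 8603 to 13324 in young libraries, and 0 of the 12 genes were at 0 in any library.

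Single astrocyte markers differed among themselves. Aqp4, the water channel of astrocyte endfeet, had 1.55 (adjusted p = 0.186) and Gfap, the astrocyte filament protein, 0.86 (adjusted p = 0.236). Gja1 (0.22), Slc4a4 (0.11) and Aldh1l1 (-0.02) were nearer to 0. So were Slc1a2 and Slc1a3, although Slc1a2 went more with excitatory neuron markers than with astrocyte markers. The part of astrocyte RNA in the partner and metabolism genes was not tested. None of the 9 other marker lists passed. Over all assignments of age their differences of mean log2 level ran from -0.93 for thalamic and midbrain glutamatergic markers (adjusted p = 0.515) to 0.33 for oligodendrocyte markers (adjusted p = 0.713). Within the sets these 2 lists had -0.18 and 0.89 (adjusted p = 0.798 and 0.385), microglia markers 0.51 (adjusted p = 0.385) and oligodendrocyte precursor markers 0.90 (exact permutation p = 0.0159, adjusted p = 0.102), the same adjusted p as for astrocytes. The precursor markers had 0.81 within the sets without aged library 3 (adjusted p = 0.159). The most abundant gene of each of these lists did not pass in limma with age alone either (adjusted p from 0.182 to 0.985). Among them, Vcan of oligodendrocyte precursors had -1.13, Flt1 of endothelium -0.76 and Camk2a -0.70, whereas Syt1, a synaptic vesicle protein of neurons, had 0.0088.

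The deposited table also has a row named Recording, which holds a number from 0.035 to 0.172 for each library and names no unit. No transporter's relation to it passed adjustment over 12 tests within sets. The smallest adjusted p was 0.137, shared by Slc1a1 (r = 0.85, exact permutation p = 0.0343; rho 0.61, exact p = 0.167), Slc1a2 (r = 0.79, exact p = 0.0286; rho 0.75, exact p = 0.0663) and Slc1a3 (r = 0.84, exact p = 0.0252; rho 0.50, exact p = 0.267) in the 7 Xist-positive libraries; all 3 rho had an adjusted p of 0.640. Without the 2 libraries farthest from the median Recording value, aged 3 and aged 6, r was 0.13, 0.78 and -0.48. With only aged library 3 left out, r was 0.37, 0.44 and 0.66 (exact permutation p = 0.482, 0.360 and 0.143; n = 6). The relations of Slc1a1 and Slc1a3 thus rested on few libraries. That of Slc1a2 stayed near its full value without aged 3 and aged 6, but not without aged 3 alone. In the Xist-negative libraries r lay between -0.44 and 0.20 for the 6 genes.

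In the authors' deposited table, 0 of 6 transporters had an adjusted p under 0.05, where 2.41% of 21253 genes with such a value did. The authors' deposited table gives Slc17a6 a log2 fold change, aged over young, of 1.68 (adjusted p = 0.0881) and the others values from -0.25 for Slc1a1 to 0.46 for Slc17a7 (adjusted p 0.581 to 0.920). In the authors' deposited table Glud1 (0.98, adjusted p = 0.00681) and Slc25a18 (0.99, adjusted p = 0.0236) passed upward, with the sign that both genes had in both fits here.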

How the data were processed

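Neuronal nuclei of the medial entorhinal cortex were profiled with SmartSeq libraries, the RNA having been extracted with TRIzol, per the labels' protocols. The submitters' processing notes list STAR, kallisto, DESeq2 and mm10 and give neither version nor role; the annotation, the filters and the use of strand were not given in the sources used here. Deposited by the authors was 1 table of normalized signal per gene. Its values are not whole, and each library's median ratio to the geometric mean was 1.02 (18245 genes above 0 throughout), so median-of-ratios scaling equalizes the typical gene, reads could not be recovered, depth is unknown and no counting interval is given. Per the file headers it also holds the authors' log2 fold change with its standard error, a test score, p-value and adjusted p-value, used as the authors' comparison only. A row without a name (0.0430 to 0.221% of a library) was left out, and 0 value columns were unmapped.

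Groups came from the labels, and a library is called by its group and the number in its title. limma 3.58.1 in R 4.3.3 (eBayes with the trend option) was fitted to log2(value + 1) over the 24554 genes that reached 1 in no fewer than 7 libraries, with Benjamini-Hochberg adjustment over all of them and a threshold of 0.05; this scale understates changes of low genes. The fit with age and the library set was tested on simulated data with independent normal errors, and the fit with age alone was not. Library sets were split at an Xist value of 100. Ratios, marker levels and correlations used exact permutations (all 3432 assignments of age, 441 within sets, or all 5040 orderings within a set; Python 3.11.15, scipy 1.17.1). The 6 genes and all lists were chosen with earlier results of these data known. Named genes are the 6, Xist, the 2 with the smallest p per pathway list in each of the 2 age fits, the most abundant marker per list, 4 further astrocyte markers and the 3 nearest genes by likeness; those named outside this rule were chosen after their values were seen, and 3 listed genes are not reported here. Pc and Nherf1 were read under the file's symbols Pcx and Slc9a3r1. Promoters are RefSeq's and gene spans GENCODE M21's. Alternatives covered scaling, filters, pseudocount, sample weights, the trend, the sets and leaving out each library; the fits without aged library 3 were read more closely after seeing the data.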

Additional observations from a re-analysis of the deposited data

Results flagged for a closer look

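Of 38 groups of 7 libraries checked for a library far from the rest, 7 were marked, where chance gives about 1 in 20 for normally distributed values. The transporters were checked on normalized values, and the ratios and marker lists on log2 values. The checks also share libraries, so the count of 7 cannot be set against that rate. Aged library 3 had the highest Slc17a6 of the aged libraries, at 6241 with the next at 1956, and the lowest Slc1a1, at 1863 with the next at 3745. Young library 3 had the highest Slc17a7 of the young libraries, at 8083 with the next at 3699, and the highest Slc1a2, at 15585 with the next at 7947. Aged library 6 had the lowest mean log2 level of astrocyte markers among aged libraries, at 8.43 with the next at 9.41. Aged library 12 had the lowest level of pan-neuronal markers, at 12.70 with the next at 13.46. Young library 2 had the lowest level of endothelial and mural markers among young libraries, at 4.93 with the next at 6.45.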

How the results depend on the processing

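Over the alternatives run, no transporter passed the threshold except with limma's sample weights in the fit with age alone. There Slc17a7 (1.24, adjusted p = 0.00227), Slc17a6 (1.07, adjusted p = 0.0180) and Slc17a8 (-1.59, adjusted p = 0.0120) passed, 2 members higher and 1 lower. Of the 24554 genes tested, 3634 were then called higher and 9414 lower, so such calls were common among all genes. That fit gave weights of 0.27 to 0.42 to young libraries 2 and 3 and aged libraries 12 and 13, the minority of each age within its set. Age and library set therefore cannot be told apart in it, and the cause of the weights was not tested. Slc17a7, Slc17a6, Slc17a8 and Slc1a1 kept their sign under every alternative run. Leaving out 1 library at a time gave 0.41 to 0.93 for Slc17a7, 0.97 to 1.54 for Slc17a6, -1.22 to -0.50 for Slc17a8, -0.44 to -0.19 for Slc1a1, -0.13 to 0.34 for Slc1a2 and -0.048 to 0.39 for Slc1a3 with age alone. With the set the ranges were 0.060 to 0.56, 1.05 to 1.66, -0.56 to -0.065, -0.38 to -0.16, -0.51 to -0.011 and -0.083 to 0.36.

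Slc1a2 changed sign with the set (-0.23), in Xist-positive (-0.11; 0.31 without aged library 3) and Xist-negative (-0.35) libraries and with upper quartile scaling (-0.095). Slc1a3 changed sign in Xist-positive libraries (-0.52, and -0.15 without aged library 3) and with upper quartile scaling (-0.093). The cause was not tested. The ratio of Slc1a2 to Slc1a3 changed sign in Xist-positive libraries (0.41) and that of Slc1a2 to Slc1a1 in Xist-negative ones (-0.26). With a library left out, the ratio of Slc17a6 to Slc17a7 ran from 0.039 to 1.13, that of Slc1a2 to Slc1a3 from -0.36 to 0.29 (-0.39 within sets without aged library 3) and that of Slc1a2 to Slc1a1 from 0.24 to 0.66. Inhibitory markers changed sign within sets (0.14; 0.23 without aged library 3) and at a pseudocount of 10 (0.0020), and endothelial and mural markers within sets (0.13). With a library left out, astrocyte markers ran from 0.49 to 0.81, excitatory ones from -0.56 to 0.053, inhibitory ones from -0.22 to 0.12 and microglia markers from -0.065 to 0.29.

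Over all genes, calls higher and lower in aged libraries numbered 0 and 1 with age alone, 1 and 1 with the set, 2 and 58 in Xist-positive libraries (3 and 64 without aged library 3), 3 and 2 in Xist-negative ones, 6 and 2 at a pseudocount of 10, 14 and 2 at a mean of 100 or more, 50 and 2 with equal totals, 4 and 1 with upper quartile scaling and 0 and 0 without the trend. With a library left out they ran from 0 to 597 higher and 0 to 1784 lower, or 0 to 3 and 0 to 2 with the set. No paired analysis was possible because the aged and young libraries share a single title number, 3. Depth is unknown, the Xist-positive set has 2 young and the Xist-negative set 2 aged libraries, and sex, batch and animal are not given, so set and these cannot be told apart.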
